A study of Mus musculus with 6 samples.

Results

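The genes described here are 55 components of Wnt signalling, chosen by symbol from the 54532 genes of the deposited annotation and joined by gene identifier to the raw counts. They fall into 12 ligands, 15 receptors, 13 inhibitors, 8 genes of the R-spondin axis and 7 intracellular components and targets. Each was read in 6 RNA-seq libraries of primary mouse bone marrow mesenchymal stem cells (mBMSCs) from wild type bone, 3 cultured with 0.1 μM nickel and 3 with vehicle only. The comparison asks which Wnt genes differed in mRNA level when low-dose nickel was present during osteogenic differentiation.

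Both groups, Ni and control, spent 7 days in the same bone-inducing medium, with ascorbic acid at 50 μg/mL, β-glycerophosphate at 10 mM and, per the labels, dexamethasone at 100 nM. The study's methods give a different dexamethasone concentration for its cultures. The strain, age and sex of the donor mice are not given in the sources used here, and although the replicates are described as independent, it is not said whether each came from its own mouse. The p-values below therefore measure the spread between these 6 cultures. Totals ran from 16101033 to 18642504 counts per library. Stromal and macrophage markers were both abundant: the summed level of 12 stromal genes was 12108 to 18853 CPM (reads scaled to library size) in control and 23238 to 28070 CPM with Ni, and that of 13 macrophage genes 26068 to 31018 CPM over the 6 libraries, so the libraries are not of mesenchymal cells alone. In such bulk samples, fewer cells of a type and less RNA per cell cannot be told apart. The third control library stood apart from the other control libraries and nearer to the Ni libraries, so the members named below and the counts over each class are also given without it.

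Wnt proteins are secreted lipid-modified ligands that bind a Frizzled receptor together with the co-receptor LRP5 or LRP6. In the canonical branch this stops the degradation of β-catenin, which enters the nucleus and activates target genes with the DNA-binding factors of the TCF/LEF family, while R-spondins strengthen the signal by keeping Frizzled receptors at the surface. In bone, canonical Wnt signalling favours osteoblast formation, and secreted antagonists such as sclerostin and the DKK and SFRP proteins restrain it.

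TCF/LEF factors bind DNA at sites with the core CTTTGA, read as TCAAAG on the other strand. The promoters of 4 members are printed to show what the start of these genes looks like with and without that core: the ligand with the smallest p, a receptor, the member with the largest absolute fold change, and a textbook feedback target. Each is the stretch of 250 bases before a RefSeq transcription start (GRCm38.p6), read 5′ to 3′ on the gene's strand, with every match in capitals. Where a gene had several such starts, a window with the core was taken first, and then the start nearest the annotated one.
Wnt10b, minus strand, chr15:98778151-98778400: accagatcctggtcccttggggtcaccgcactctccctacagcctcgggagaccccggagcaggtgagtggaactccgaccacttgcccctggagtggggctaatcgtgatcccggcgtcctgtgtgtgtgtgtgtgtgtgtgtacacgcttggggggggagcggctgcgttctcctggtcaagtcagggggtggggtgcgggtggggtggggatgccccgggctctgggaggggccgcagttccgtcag
Fzd1, minus strand, chr5:4758217-4758466: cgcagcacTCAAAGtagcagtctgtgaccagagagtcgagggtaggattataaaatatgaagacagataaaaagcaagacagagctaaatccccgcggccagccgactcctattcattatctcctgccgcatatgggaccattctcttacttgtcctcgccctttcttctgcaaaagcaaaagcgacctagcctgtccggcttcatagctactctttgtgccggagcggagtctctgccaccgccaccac
Lef1, plus strand, chr3:131156044-131156293: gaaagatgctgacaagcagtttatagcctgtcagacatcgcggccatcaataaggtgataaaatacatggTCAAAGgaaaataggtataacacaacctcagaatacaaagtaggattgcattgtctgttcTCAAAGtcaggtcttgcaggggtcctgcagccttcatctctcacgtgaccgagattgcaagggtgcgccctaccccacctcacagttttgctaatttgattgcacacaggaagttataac
Axin2, plus strand, chr11:108920099-108920348: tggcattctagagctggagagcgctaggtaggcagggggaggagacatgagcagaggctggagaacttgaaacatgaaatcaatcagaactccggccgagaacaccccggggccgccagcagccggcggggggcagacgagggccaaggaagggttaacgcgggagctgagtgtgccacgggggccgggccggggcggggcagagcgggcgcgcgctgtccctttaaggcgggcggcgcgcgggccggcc
The Fzd1 window held 1 match, which began 242 bases before a start that lies 181 bases upstream of the annotated gene start. The Lef1 window held 2 matches, 120 and 180 bases before an alternative start 45823 bases from the outermost annotated one. It was picked from 4 Lef1 starts because it held the core. No match was found in these windows of Wnt10b or Axin2, which were rich in G and C, at 66.8% and 69.2% of bases. The RefSeq table held 43 promoters of 34 members, and 7 of the 43 (16.3%) contained the core on either strand, against 13.8% of all 32851 promoters. Such a match describes letters only and is no evidence of binding.

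Of the 55 genes, 52 had at least 1 read, and 46 passed the filter on low counts and were tested. Mean FPKM, which is scaled by gene length and so allows levels of different genes to be compared, was at least 10 for 8 members, 1 to 10 for 21, and below 1 for 23. Ctnnb1, which encodes β-catenin, was the highest at 100.0 FPKM. Sost (sclerostin), Sostdc1 and Kremen2 had no read in any library, which allows a level of up to 0.161 to 0.186 CPM, the value of 3 counts (counting error only). Frzb, Dkk1, Fzd6, Wnt2, Wnt10a and Rspo1 had too few reads to test.

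**Figure D1:**
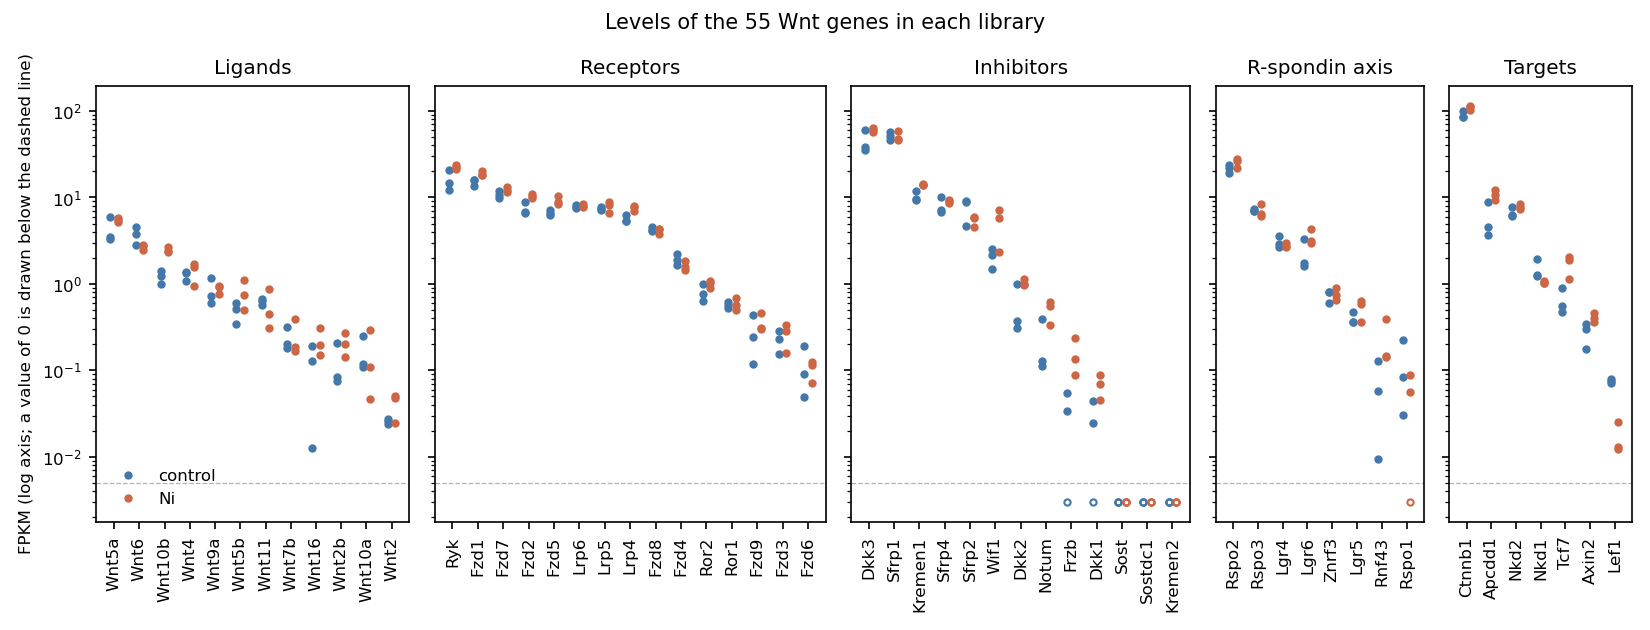
FPKM of all 55 Wnt genes in each library on a log axis, by class and ordered by mean level. Each point is 1 library, blue for control and orange for Ni, and open points under the dashed line are values of 0. Ctnnb1 (mean 100.0 FPKM), Dkk3 (52.6) and Sfrp1 (51.1) were the highest, and Sost, Sostdc1 and Kremen2 were at 0 throughout.

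Most Wnt genes tested had higher values with Ni, but none passed the test after adjustment. Of the 46, 36 (78.3%) were on the positive side of 0, and the median of their log2 fold changes was 0.30, whereas 48.1% of all 14624 genes tested were positive (median -0.01). At an unadjusted p under 0.05 in edgeR's quasi-likelihood test, 13 members were higher and 3 lower. Among all genes the same threshold was passed upwards by 7.59% and downwards by 5.83%. After Benjamini-Hochberg (BH) adjustment over all genes, edgeR called 0 members and 0% of all genes (1963 genes had an unadjusted p under 0.05). The smallest edgeR BH-adjusted p of a member was 0.208. All Ni libraries lay above all control libraries for 12 tested members and below them for 3, against 7.97% and 6.71% of all genes. For 1 such gene an exact two-sided permutation test of 3 against 3 cannot go below p = 0.1. Where members are named below for their p, their separation adds no support.

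The third control library was the control nearest to the Ni mean for 30 of the 46 members (65.2%), against 55.7% of all genes. Without it, edgeR called 20 members at a BH-adjusted p under 0.05, 18 higher and 2 lower, and the median member fold change was 0.39 on the log2 scale. With the first or the second control library left out instead, edgeR called 0 members. The background moved as well: 8.69% of all genes were then called higher and 6.49% lower. Of the 16 members at an unadjusted p under 0.05 in all 6 libraries, 13 were among these 20, and Wif1, Lef1 and Nkd1 were not. DESeq2 on all 6 libraries called 6 members, all higher (Wnt10b, Fzd5, Wif1, Kremen1, Tcf7 and Apcdd1), where it called 1.57% of all genes higher and 0.368% lower.

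**Figure D2:**
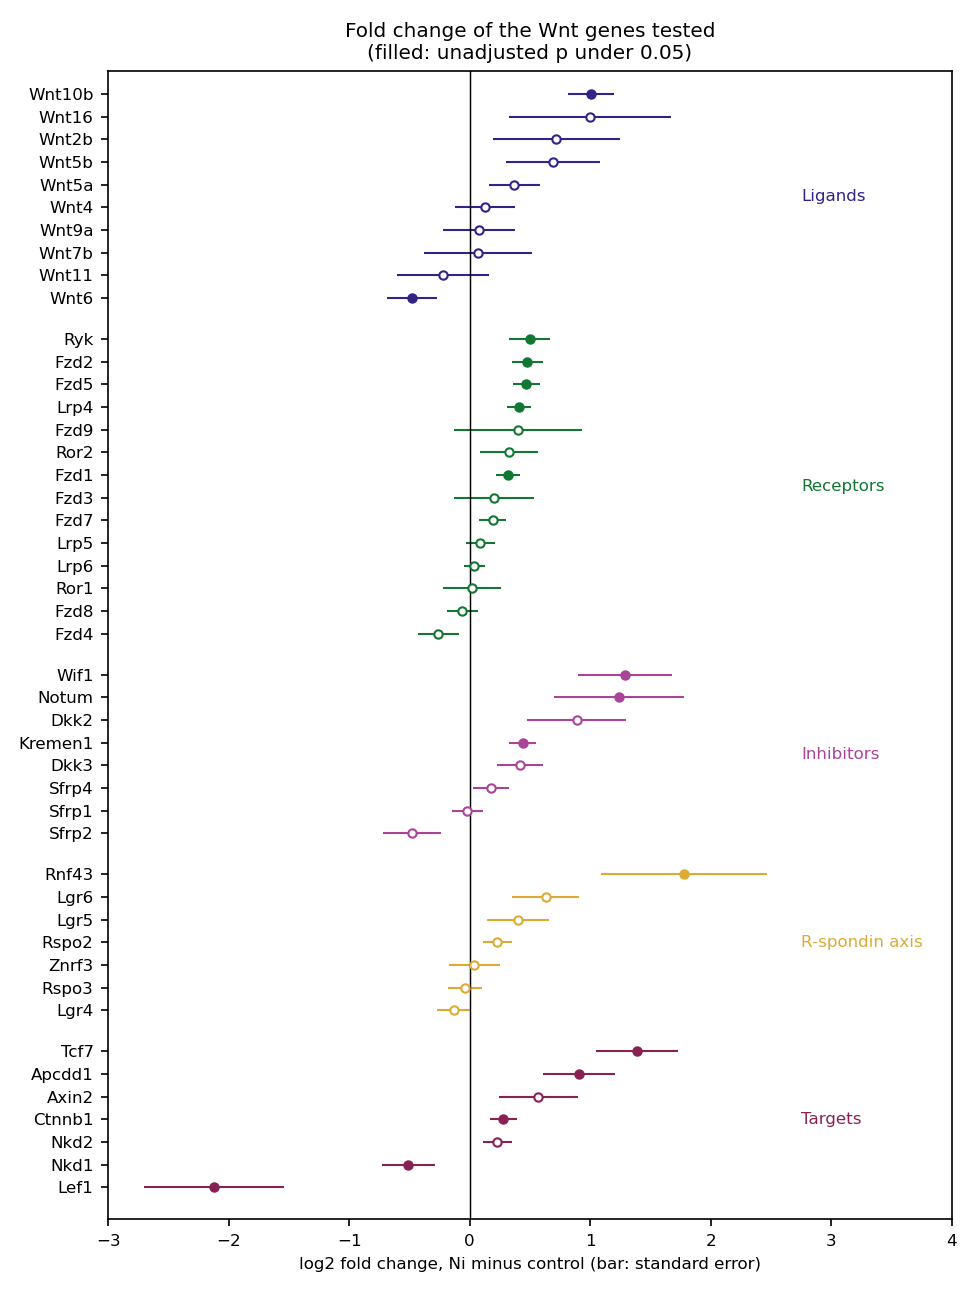
Log2 fold change, Ni minus control, of the 46 Wnt genes tested by edgeR, with the standard error as a bar and filled points for an unadjusted p under 0.05. In every class more points lie right of 0 than left, from 5 against 2 in the R-spondin axis and the targets to 12 against 2 among receptors.

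Osteoblast markers and the type I collagen genes, listed here as stromal markers, had higher values with Ni. The summed level of 12 osteoblast genes was 5876 CPM, 5339 CPM and 11977 CPM in the 3 control libraries, and 16037 CPM, 11273 CPM and 16417 CPM in the Ni libraries. Spp1 and Ibsp made up most of this sum, at 4699.0 and 934.7 CPM in the first control library and 9999.3 and 5333.1 CPM in the first Ni library. All 12 were higher at an unadjusted p under 0.05, where 7.59% of all genes were higher and 5.83% lower. The third control library lay within the Ni range. The 12 stromal genes summed to 12108 CPM, 12823 CPM and 18853 CPM in control and 28070 CPM, 23238 CPM and 26724 CPM with Ni, without overlap, and 4 were higher and 1 lower at that threshold. Type I collagen genes, which osteoblasts also express, made up most of this sum, with log2 fold changes of 1.13 (Col1a1) and 0.97 (Col1a2). The other stromal genes ran from -0.47 (Cxcl12) to 0.79 (Nt5e), with Pdgfra, Lepr, Thy1 and Vcam1 between -0.18 and 0.07. Summed osteoclast markers were 1136 CPM, 1339 CPM and 657 CPM in control and 610 to 686 CPM with Ni, and the third control library lay inside the Ni range. Acp5 carried most of that sum, and of the 4 genes tested 2 were lower (Acp5 and Mmp9), while Ctsk and Atp6v0d2 had log2 fold changes of 0.62 and 0.24 and did not pass. Summed macrophage markers overlapped between groups (26068 to 31018 CPM in control, 26158 to 26916 CPM with Ni), and 4 of 13 were lower. Endothelial markers summed to at most 78 CPM and adipocyte markers to at most 131 CPM. The part of these shifts in the Wnt values was not tested.

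Among the ligands, Wnt10b had higher and Wnt6 lower values with Ni. Of 10 ligands tested, 8 had positive fold changes with a median of 0.25. The unadjusted threshold of 0.05 was passed by 1 upwards and 1 downwards, where 7.59% and 5.83% of all genes passed it, so the count for the class is near the background. The ligand median was 0.47 without the third control library and 0.14 without the second. Without the third, 2 ligands were called higher and 1 lower, against 8.69% and 6.49% of all genes. Wnt10b (15:98770712-98778150, minus strand), a canonical ligand known to promote bone formation, had 4.26 CPM, 3.46 CPM and 4.80 CPM in control and 7.98 CPM, 8.29 CPM and 9.06 CPM with Ni. The groups did not overlap, and the difference between the means was larger than the spread within groups (4.18 ± 0.672 against 8.44 ± 0.556 CPM, SD, n = 3 each). Wnt10b passed the unadjusted threshold in these same libraries, so this separation adds no support. Its fold change was 2.02 (log2 1.01, SE 0.19, edgeR BH-adjusted p = 0.208), the smallest p of any member. Without the third control library the log2 fold change of Wnt10b was 1.13 (edgeR BH-adjusted p = 0.00328), and over all alternatives the adjusted p ran from 0.00104 to 0.749.

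Wnt6 (1:74771892-74785322, plus strand), another canonical ligand, had 10.1 CPM, 8.38 CPM and 6.24 CPM in control and 5.97 CPM, 5.53 CPM and 6.19 CPM with Ni. The third control library was only just above the highest Ni library. For Wnt6 the log2 fold change was -0.48 (SE 0.21, edgeR unadjusted p = 0.0424, BH-adjusted p = 0.364) and -0.64 without that library (BH-adjusted p = 0.0394). Leaving out the first control library instead gave -0.31. Wnt6 lies next to Wnt10a, 6194 bases away on chromosome 1, and Wnt10a had only 5, 10 and 5 reads in control and 5, 2 and 13 with Ni.

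Wnt5a, the main noncanonical ligand of these cultures, made up 34.6% of the summed ligand FPKM. It had 26.2 CPM, 27.5 CPM and 47.0 CPM in control and 45.3 CPM, 43.7 CPM and 41.4 CPM with Ni. The third control library was the highest of all 6, and the groups overlapped. The log2 fold change of Wnt5a was 0.37 (SE 0.21, edgeR BH-adjusted p = 0.461), and 0.70 without that library (BH-adjusted p = 0.00103). It was 0.22 without the first control library (edgeR BH-adjusted p = 0.828). The other 7 ligands tested had unadjusted p-values over 0.05, and their log2 fold changes ran from -0.22 (Wnt11) to 1.00 (Wnt16, SE 0.67, from 1, 9 and 14 reads in control and 25, 15 and 12 with Ni). Without the third control library these 2 values were -0.16 and 1.67. Wnt2 had 1 or 2 reads in each library. Summed over the 12 ligands, the level was 12.7, 11.9 and 14.6 FPKM in control and 15.9, 15.3 and 14.2 FPKM with Ni, so the groups overlapped.

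Several receptors were higher with Ni, by 1.24 to 1.41 fold, while the canonical co-receptors Lrp5 and Lrp6 showed no difference beyond the replicate spread. Of 14 receptors tested, 12 had positive fold changes with a median of 0.26. Upwards, 5 passed an unadjusted p of 0.05 in edgeR, and downwards 0 (0 in either direction after BH adjustment, 1 higher by DESeq2). Of all genes, 7.59% and 5.83% passed that unadjusted threshold. The receptor median was 0.38 without the third control library, and 5 were then called higher, against 8.69% of all genes. All 5 had every Ni library above every control library, as had 7.97% of all genes. They were picked by p in the same libraries, so this separation adds no support. Summed over the 15 receptor genes, the level was 83.9, 77.1 and 94.3 FPKM in control and 107.8, 105.1 and 101.9 FPKM with Ni, without overlap.

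Ryk (9:102834917-102908305, plus strand) encodes an atypical Wnt receptor with a kinase-like domain and was the most abundant receptor, at 20.1% of their FPKM. It had 66.9 CPM, 55.4 CPM and 95.0 CPM in control and 101.3 CPM, 97.6 CPM and 108.1 CPM with Ni. The third control library was close to the lowest Ni library. The log2 fold change of 0.50 (SE 0.17, edgeR BH-adjusted p = 0.323) became 0.75 without that library (BH-adjusted p = 0.000614).

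Frizzled genes encode the seven-pass receptors that bind Wnt directly, and 8 of the 9 listed were tested. Fzd5 (1:64730558-64737751, minus strand) had 46.0 CPM, 43.7 CPM and 50.1 CPM in control and 72.3 CPM, 58.6 CPM and 62.4 CPM with Ni, a log2 fold change of 0.47 (SE 0.11, edgeR BH-adjusted p = 0.232). Fzd2 (11:102604396-102608058, plus strand) had 25.0 CPM, 24.5 CPM and 32.9 CPM in control and 38.3 CPM, 40.8 CPM and 35.9 CPM with Ni, a log2 fold change of 0.48 (SE 0.13, BH-adjusted p = 0.273). For both, the groups did not overlap, and the group means differed by more than the SD within either group. Both were picked by p in these libraries, so this adds no support. Fzd1 (5:4753839-4758035, minus strand), whose promoter is printed above, had 67.2 CPM, 57.9 CPM and 67.5 CPM in control and 85.4 CPM, 76.8 CPM and 77.4 CPM with Ni. Its difference was the smallest of these receptors, at 0.32 on the log2 scale (SE 0.10, edgeR BH-adjusted p = 0.305). Without the third control library the log2 fold changes were 0.53 for Fzd5, 0.64 for Fzd2 and 0.36 for Fzd1 (edgeR BH-adjusted p = 0.0074, 0.00248 and 0.0358). The other Frizzleds tested had log2 fold changes from -0.26 (Fzd4) to 0.40 (Fzd9), each with an unadjusted p over 0.05, and these 2 were at -0.36 and 0.97 without the third control library. Of the exon bases of Fzd5, 17.8% are shared with a gene on the opposite strand, and the library kit does not mark strand.

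Lrp4 (2:91457511-91513779, plus strand), which binds sclerostin and DKK1 and dampens Wnt signalling in bone, is grouped here with the receptors. It had 56.9 CPM, 57.1 CPM and 66.4 CPM in control and 81.8 CPM, 83.7 CPM and 74.2 CPM with Ni, without overlap. The log2 fold change was 0.41 (SE 0.10, edgeR BH-adjusted p = 0.248), and 0.49 without the third control library (BH-adjusted p = 0.00494). By contrast Lrp5, a co-receptor whose loss lowers bone mass, had 71.5 CPM, 75.9 CPM and 70.3 CPM in control and 80.0 CPM, 86.9 CPM and 65.0 CPM with Ni. Lrp6, its paralogue, had 113.8 CPM, 102.7 CPM and 105.8 CPM in control and 110.1 CPM, 114.9 CPM and 106.7 CPM with Ni. Both overlapped between groups, with log2 fold changes of 0.09 (SE 0.12) and 0.04 (SE 0.09) and edgeR BH-adjusted p-values of 0.772 and 0.879. The values without the third control library were 0.07 and 0.04. Ror1 and Ror2, tyrosine kinase receptors of noncanonical Wnt signals, had log2 fold changes of 0.02 (SE 0.24) and 0.33 (SE 0.24), and of -0.03 and 0.53 without the third control library.

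Among the inhibitors Wif1, Kremen1 and Notum were higher with Ni. Of 8 tested, 6 had positive fold changes with a median of 0.43. At an unadjusted p under 0.05, 3 were higher, against 7.59% of all genes. The median was 0.64 without the third control library. Then 5 were called higher and 1 lower, against 8.69% and 6.49% of all genes. Wif1 (10:121033960-121100650, plus strand), a secreted protein that binds Wnt directly, had 5.30 CPM, 3.65 CPM and 6.24 CPM in control and 14.0 CPM, 5.81 CPM and 17.5 CPM with Ni. The second Ni library lay below the highest control, so the groups overlapped. The fitted log2 fold change was 1.29 (SE 0.39, edgeR BH-adjusted p = 0.305), and 1.47 without the third control library (BH-adjusted p = 0.11). Over all alternatives the adjusted p of Wif1 ran from 1.39e-06 to 0.83, the lowest without a filter on low counts.

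Kremen1 (11:5191552-5261558, minus strand) encodes a membrane receptor for DKK proteins, not a secreted one. It had 72.8 CPM, 74.1 CPM and 93.9 CPM in control and 109.2 CPM, 110.5 CPM and 107.2 CPM with Ni. The Ni libraries were tightly grouped above all controls. The log2 fold change was 0.44 (SE 0.11, edgeR BH-adjusted p = 0.249), and 0.57 without the third control library (BH-adjusted p = 0.00101). Kremen1 lies 14766 bases from Znrf3 on chromosome 11, whose log2 fold change was 0.04 (SE 0.21), and 0.12 without that library.

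Notum (11:120653788-120661175, minus strand), an enzyme that removes the lipid from Wnt proteins, had few reads, with 5, 5 and 16 in control and 25, 14 and 27 with Ni. The third control library exceeded the second Ni library. Its log2 fold change was 1.24 (SE 0.54, edgeR BH-adjusted p = 0.367), and 2.04 without that control (BH-adjusted p = 0.0351). Of its exon bases, 38.1% are shared with an opposite-strand gene.

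The most abundant inhibitors were Dkk3 and Sfrp1. Dkk3, a divergent member of the Dickkopf family, held 38.7% of the summed inhibitor FPKM, with 120.3 CPM, 129.2 CPM and 206.7 CPM in control and 212.8 CPM, 194.7 CPM and 203.3 CPM with Ni. Its value in the third control library lay inside the Ni range, and the log2 fold change of 0.42 (SE 0.19, edgeR BH-adjusted p = 0.376) became 0.71 without it (BH-adjusted p = 0.000305). Sfrp1, a secreted Frizzled-related protein that binds Wnt and lowers bone formation, had 226.9 CPM, 201.1 CPM and 252.9 CPM in control and 208.1 CPM, 260.5 CPM and 201.1 CPM with Ni. The groups of Sfrp1 overlapped fully, with a log2 fold change of -0.02 (SE 0.13, edgeR BH-adjusted p = 0.957) that was 0.07 without the third control library.

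Dkk2, a DKK antagonist of LRP co-receptors, had 21, 22 and 62 reads in control and 69, 63 and 76 with Ni. Again the third control library resembled the Ni libraries, and the log2 fold change was 0.89 (SE 0.41, edgeR BH-adjusted p = 0.377) with it and 1.61 without it (BH-adjusted p = 0.00367). It was 0.59 without the first control library. Sfrp2 went the other way, with 19.1 CPM, 19.5 CPM and 10.3 CPM in control and 12.5 CPM, 12.8 CPM and 9.78 CPM with Ni. Its log2 fold change was -0.48 (SE 0.24, edgeR BH-adjusted p = 0.409), and -0.72 without the third control (BH-adjusted p = 0.00737). Of its exon bases, 16.1% are shared with an opposite-strand gene. Sfrp4 differed by 0.18 on the log2 scale (SE 0.15), and by 0.38 without that library (edgeR BH-adjusted p = 0.0328), but by 0.08 without the second control library and 0.10 without the first. Dkk1, an antagonist of LRP co-receptors that limits bone formation, had 2, 0 and 1 reads in control and 4, 3 and 2 with Ni, too few to test.

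**Figure D3:**
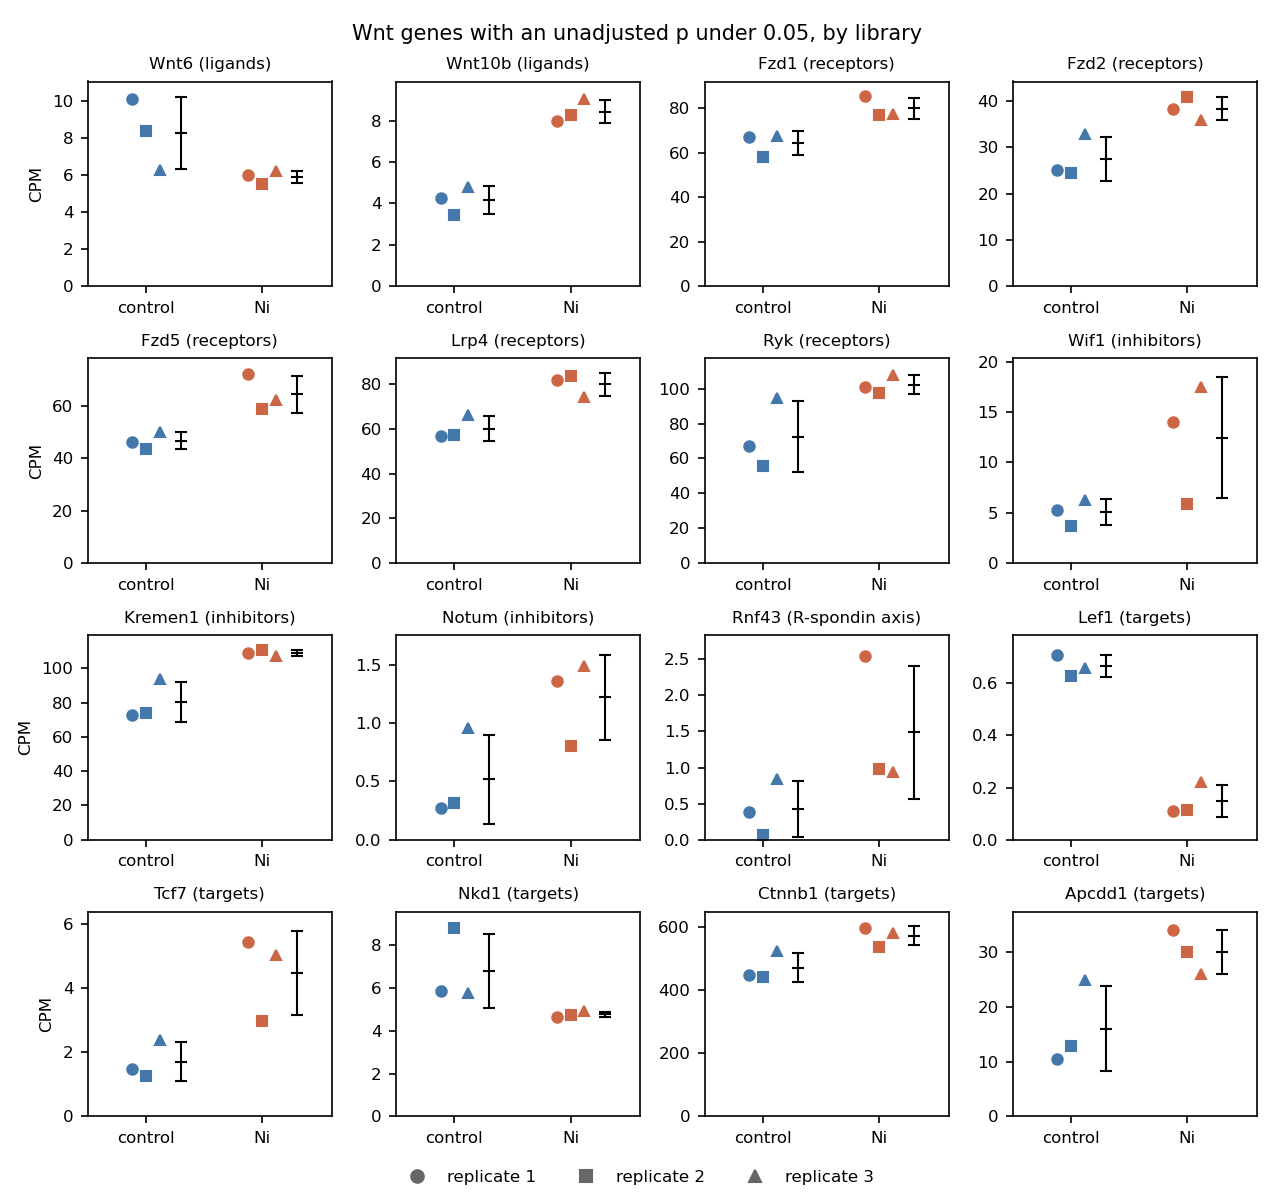
CPM of the 16 Wnt genes with an unadjusted p under 0.05, by library (circle, square and triangle for replicates 1, 2 and 3), with mean and SD beside the points. Each panel has its own axis from 0. The third control (blue triangle) lies nearest to Ni for most genes, as for Apcdd1 (24.8 CPM against 10.4 and 12.8), and only Lef1, Nkd1 and Wnt6 are lower with Ni.

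In the R-spondin axis a ubiquitin ligase that removes Frizzleds was higher with Ni, at very low counts, while the R-spondins and their LGR receptors overlapped between groups. Of 7 genes tested, 5 had positive fold changes with a median of 0.23, and 1 was higher at an unadjusted p under 0.05. Among all genes 7.59% were, so the count for this class is near the background. The median was 0.31 without the third control library, with 2 called higher (8.69% of all genes), and 0.15 without the second. Rnf43 (11:87662722-87735539, plus strand), that ligase, had 7, 1 and 14 reads in control and 47, 17 and 17 with Ni. The groups did not overlap, and the first Ni library was far above the other two. Its log2 fold change was 1.78 (SE 0.69, edgeR BH-adjusted p = 0.34), and 2.66 without the third control library (BH-adjusted p = 0.0328). Without the first Ni library it was 1.14. Znrf3, its paralogue, showed no such difference (log2 fold change 0.04, SE 0.21).

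Rspo2 was the main R-spondin, with 62.2% of the summed FPKM of the axis. It had 113.3 CPM, 97.9 CPM and 121.4 CPM in control and 141.8 CPM, 114.8 CPM and 134.6 CPM with Ni, which overlapped. The log2 fold change of Rspo2 was 0.23 (SE 0.12, edgeR BH-adjusted p = 0.404), 0.31 without the third control library and 0.15 without the second. Among the receptors, Lgr4, which promotes bone formation, had 21.2 CPM, 16.1 CPM and 17.0 CPM in control and 16.2 CPM, 16.0 CPM and 17.4 CPM with Ni, a log2 fold change of -0.13 (SE 0.14, edgeR BH-adjusted p = 0.719) that was -0.17 without the third control library, 0.00 without the first and -0.21 without the second. Lgr6, a stem cell marker in several tissues, had 12.1 CPM, 11.1 CPM and 22.9 CPM in control and 20.4 CPM, 29.6 CPM and 21.4 CPM with Ni, a log2 fold change of 0.63 (SE 0.28, edgeR BH-adjusted p = 0.38), and 1.04 without the third control library (BH-adjusted p = 0.0019). The other tested genes of the axis, Rspo3 and Lgr5, had log2 fold changes of -0.04 (SE 0.14) and 0.40 (SE 0.26), and of -0.05 and 0.33 without the third control library. Rspo1 had 3, 7 and 1 reads in control and 2, 3 and 0 with Ni.

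The targets had values in both directions. Of the 7 genes in this class, 5 had positive fold changes with a median of 0.28. It was 0.37 without the third control library, and 4 were then called higher, against 8.69% of all genes. At the unadjusted threshold with all libraries 3 were higher and 2 lower, against 7.59% and 5.83% of all genes. All Ni libraries lay above all controls for 4 and below for 2, against 7.97% and 6.71%. Ctnnb1 (9:120929216-120960507, plus strand) is the transducer of the pathway and not a target. It had 450.3 CPM, 443.0 CPM and 523.9 CPM in control and 598.0 CPM, 539.1 CPM and 583.2 CPM with Ni, without overlap, a log2 fold change of 0.28 (SE 0.11, edgeR BH-adjusted p = 0.344) and 0.37 without the third control library (BH-adjusted p = 0.0135). Of its exon bases, 14.6% are shared with a gene on the opposite strand. These values are of mRNA and say nothing of the amount of β-catenin protein or its place in the cell.

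Apcdd1, a target that itself binds Wnt at the membrane and inhibits it, had 10.4 CPM, 12.8 CPM and 24.8 CPM in control and 33.9 CPM, 30.0 CPM and 26.0 CPM with Ni. The lowest Ni library was just above the third control library. Its log2 fold change was 0.91 (SE 0.30, edgeR BH-adjusted p = 0.318), and 1.38 without that library (BH-adjusted p = 0.000183).

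Axin2 (11:108920349-108950783, plus strand), a scaffold of the β-catenin destruction complex and the best known feedback target, had few reads, with 18, 30 and 28 in control and 41, 44 and 36 with Ni. Every Ni library was above every control, and the fold change was 1.49 (log2 0.57, SE 0.33, edgeR unadjusted p = 0.115, BH-adjusted p = 0.471). Without the third control library it was 0.66 on the log2 scale (BH-adjusted p = 0.298), and without the first it was 0.33 (BH-adjusted p = 0.847). Axin2 passed no alternative at the adjusted threshold.

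The Naked proteins, feedback inhibitors that bind Dishevelled, differed in sign. Nkd1 had 5.85 CPM, 8.82 CPM and 5.76 CPM in control and 4.67 CPM, 4.72 CPM and 4.92 CPM with Ni, a log2 fold change of -0.51 (SE 0.22, edgeR BH-adjusted p = 0.364). The highest control drew the mean of that group up. Nkd2 had 29.7 CPM, 30.6 CPM and 38.1 CPM in control and 38.1 CPM, 36.2 CPM and 40.8 CPM with Ni, which overlapped (log2 fold change 0.23, SE 0.12, edgeR BH-adjusted p = 0.434). Without the third control library the values were -0.61 (BH-adjusted p = 0.0992) and 0.35 (BH-adjusted p = 0.0497). Without the second control library Nkd1 was at -0.28 (edgeR BH-adjusted p = 0.864). Whether the fold changes of Nkd1 and Nkd2 differ was not tested.

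**Figure D4:**
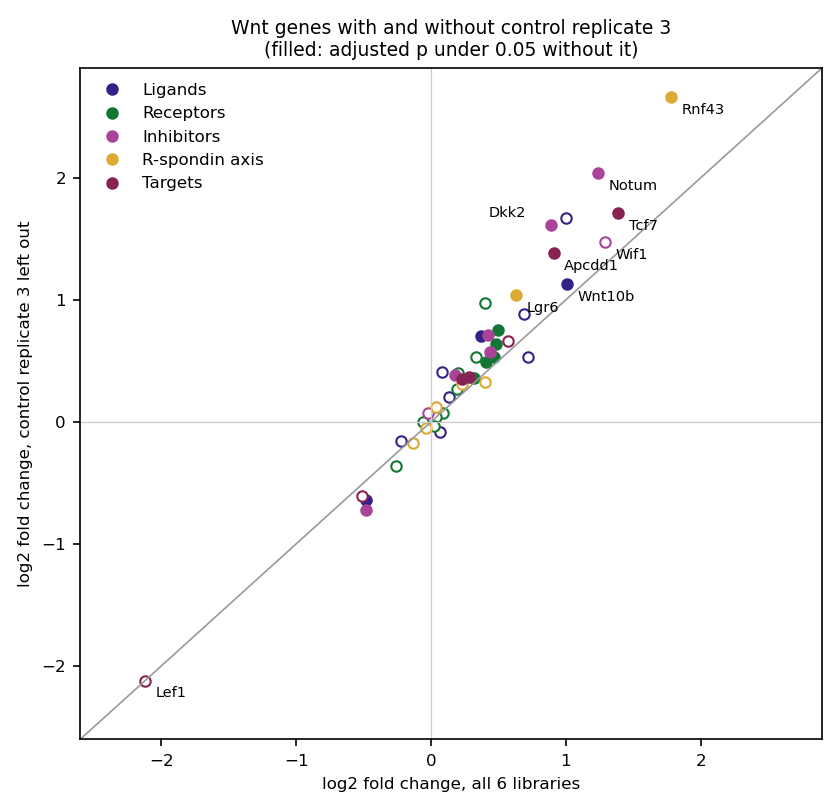
Log2 fold change of the Wnt genes tested, with all 6 libraries (x axis) against the same without the third control library (y axis). The line marks equal values, and filled points have an edgeR BH-adjusted p under 0.05 without that library. Most points with a positive change lie above the line, among them Dkk2 (0.89 against 1.61) and Apcdd1 (0.91 against 1.38), whereas Lef1 is the same on both axes (-2.12).

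TCF/LEF genes encode the DNA-binding partners of β-catenin, and Tcf7 and Lef1 are themselves Wnt targets. These factor genes had opposite values with Ni. Tcf7 (11:52252371-52283014, minus strand) had 27, 20 and 40 reads in control and 100, 52 and 91 with Ni, a log2 fold change of 1.39 (SE 0.34, edgeR BH-adjusted p = 0.241). Every Ni library was above every control, and without the third control library the value was 1.71 (BH-adjusted p = 0.00497). Lef1 (3:131110471-131224356, plus strand) had 13, 10 and 11 reads in control and 2, 2 and 4 with Ni. The groups did not overlap and the controls were closely alike, with a log2 fold change of -2.12 (SE 0.58, edgeR BH-adjusted p = 0.271), also -2.12 without the third control library (BH-adjusted p = 0.0713). Lef1 is at the edge of detection, with 42 reads in all, and on a log2(FPKM + 1) scale its difference was only -0.08. Of its exon bases, 13.7% are shared with an opposite-strand gene.

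Per length, Tcf7 stood at 0.558, 0.476 and 0.905 FPKM in control and 2.06, 1.13 and 1.91 FPKM with Ni. That made up 9.73%, 8.83% and 16.5% of the summed FPKM of the 4 factors in control and 27.1%, 17.1% and 27.0% with Ni, so the shares did not overlap. The Lef1 share was 1.40%, 1.32% and 1.35% in control and 0.162%, 0.196% and 0.355% with Ni. These shares were chosen after the values were seen and have no test. The other 2 factors made up most of the family in every library: Tcf7l1, often a repressor, had 2.53, 2.18 and 2.66 FPKM in control and 3.48, 3.31 and 2.96 FPKM with Ni (log2 fold change 0.40, edgeR BH-adjusted p = 0.334), and Tcf7l2 had 2.57, 2.66 and 1.86 FPKM against 2.06, 2.15 and 2.17 FPKM, which overlapped.

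**Figure D5:**
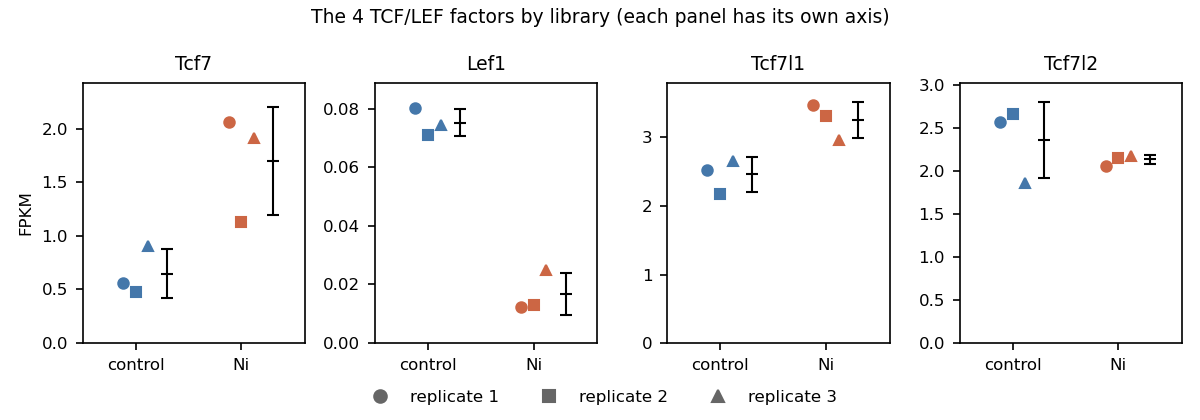
FPKM of the 4 TCF/LEF factors by library (circle, square and triangle for replicates 1, 2 and 3), with mean and SD beside the points and an axis from 0 in each panel. Tcf7 and Tcf7l1 are higher in every Ni library than in every control, Lef1 is lower at levels under 0.1 FPKM, and Tcf7l2 overlaps.

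Other pathway genes, from a list of 104 matched symbols covering secretion, signal transduction, planar polarity and further targets, were mixed. Of 86 tested, 49 were positive, with a median log2 fold change of 0.02. At an unadjusted p under 0.05, 10 were higher and 5 lower, against 7.59% and 5.83% of all genes (0 after BH adjustment in edgeR). The median was 0.04 without the third control library. Of these genes 16 were then called higher and 7 lower, against 8.69% and 6.49% of all genes. In the groups most like the members, all 6 further receptors and inhibitors tested were positive, with a median of 0.28, as were the 2 tested genes of ligands and secretion, with a median of 0.30. The 12 transduction genes tested had a median of 0.07. The 16 destruction complex genes tested had a median of -0.02, the 20 nuclear factors -0.03 and the 11 planar polarity genes -0.02, while the 19 further targets had a median of 0.26, with 5 higher and 1 lower. With all 6 libraries, Wisp1, a matricellular target also called Ccn4, was 34.7 ± 6.21 CPM in control and 60.7 ± 13.8 CPM with Ni (SD, n = 3 each; log2 fold change 0.81, SE 0.19, edgeR BH-adjusted p = 0.241). Zbtb7c was 4.07 ± 0.693 against 7.35 ± 1.82 CPM (0.85, SE 0.24), and Dact3, an antagonist acting on Dishevelled, 17.8 ± 4.86 against 27.8 ± 3.32 CPM (0.64, SE 0.18). Tnfrsf11b (osteoprotegerin, a decoy that restrains osteoclasts) was 65.9 ± 14.5 against 92.6 ± 11.4 CPM (0.49, SE 0.16). Ptk7, a planar polarity co-receptor, and Tnfrsf19 were higher by 0.58 (SE 0.19) and 0.70 (SE 0.24) on the log2 scale. The lower genes were Bmp4 (59.3 ± 3.75 against 46.5 ± 3.46 CPM, -0.35, SE 0.10), Prickle1 (-0.70, SE 0.28), Daam1 (-0.34, SE 0.14), Tle4, a Groucho co-repressor (-0.44, SE 0.18), and Fbxw11, a β-TrCP ubiquitin ligase subunit that recognises β-catenin (-0.23, SE 0.10). The edgeR BH-adjusted p-values of these named genes ran from 0.241 to 0.367, and whether the list differs from the 55 was not tested. Among them Tnfrsf11b, Tnfrsf19, Prickle1, Daam1 and Tle4 overlapped between groups, each with the third control library inside the Ni range.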

How the data were processed

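Total RNA of 6 cultures was sequenced with a kit that does not mark strand. Per the labels the genome build was GRCm38; the aligner and counting tool are not given in the sources used here. The authors deposited whole-number read counts per gene, without normalization, and FPKM values, which equal the counts divided by gene length and by 1 factor per library (largest relative deviation 3.29e-07). Totals of 16101033 to 18642504 counts per library set the precision of low genes. Replicates differed beyond sampling noise, with 4.56 to 47.76 chi-square units per degree of freedom.

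Genes were kept by filterByExpr (14624), scaled by TMM, and Ni was compared with control in R 4.3.3 by edgeR 4.0.16 (quasi-likelihood test, robust, prior count 0.125) with Benjamini-Hochberg adjustment over all genes. CPM are TMM-scaled. Group separation used these CPM, and the nearest control and the correlations between libraries used log2 CPM with a prior count of 2. Alternatives were DESeq2 1.42.0, limma 3.58.1 on log2(FPKM + 1) and log2(FPKM + 0.1), RLE size factors, no filter, at least 10 counts in every library, removal of the gene-length trend, a replicate block, and each library left out in turn. Tested on simulated data for this comparison (200 of 14408 to 14429 genes changed by 1.5 on the log2 scale), the test recovered 81.0% to 87.0%, and 7.78% to 9.50% of its calls were false, above the nominal share. The simulated counts varied independently from gene to gene, without a shift of 1 whole library such as that of the third control. The recovery therefore does not measure the power in these libraries. Coordinates are from the deposited annotation (GRCm38) and promoters from RefSeq (GRCm38.p6).

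Members and lists were chosen with earlier results of these data known. Values per library were given for members at an unadjusted p under 0.05, the most abundant member of each class, the feedback targets and Ctnnb1, and Sost, Dkk1, Lrp5, Lrp6, Wnt10b, Sfrp1 and Lgr4, and other pathway genes were named at an unadjusted p under 0.05, at most 6 in each direction. Members outside that rule (such as Dkk2, Lgr6 and Sfrp2), and the other TCF/LEF genes, Tcf7l1 and Tcf7l2, were named after their values were seen.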

Additional observations from a re-analysis of the deposited data

How the results depend on the processing

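Of the 29 members followed one by one, 27 kept the direction of their fold change in every alternative run. Of their 432 values, 428 had the sign of the reported one. Most of the 29 were picked by p in these libraries, which favours a stable sign. The exceptions among the 29 lay near 0. Sfrp1 (-0.02 as reported) ran from -0.15 to 0.07 with 1 library left out. It was 0.07 without the third control, 0.03 without the first Ni and 0.05 without the third Ni library. Lgr4 (-0.13) ran from -0.21 to 0.00. Tested members outside the 29 also changed sign with 1 library left out. Examples are Wnt7b (-0.41 to 0.37), Wnt11 (-0.75 to 0.07) and Wnt9a (-0.11 to 0.41). None of the 75 recomputed class medians changed sign. The number of members at an adjusted p under 0.05 depended on the setting: 0 as reported, 12 without a filter on low counts, 6 by DESeq2, and 0 to 20 with 1 library left out, the 20 without the third control. Members higher at an unadjusted p under 0.05 (13) numbered 8 to 22 with 1 library left out, 8 without the second control and 22 without the third. The same count over all genes was 1110 of 14624 as reported. It was 599 of 14991 without the second control and 2285 of 15044 without the third. Members lower (3) numbered 1 by DESeq2, 1 by limma on log2(FPKM + 1) and 1 to 4 with 1 library left out, 1 without the second control, the first Ni or the third Ni library. The lower count over all genes was 853 of 14624 as reported and 654 of 14624 by limma on log2(FPKM + 1). It was 269 of 14991 without the second control and 1840 of 15044 without the third. The median log2 fold change of ligands (0.25) ran from 0.14 to 0.47 and that of receptors (0.26) from 0.18 to 0.38 with 1 library left out, the highest of each without the third control. The receptor median was 0.13 on log2(FPKM + 1), a scale that compresses low values, and the target median (0.28) was 0.43 with at least 10 counts in every library, which drops Lef1. Over all genes the adjusted calls were 0 of 14624 as reported, 1027 of 25876 without a filter and 264 of 13593 by DESeq2. They were 2283 of 15044 without the third control and 13 of 15004 without the second Ni library. The causes were not tested.

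With the replicate number as a block, 4 members were called (Wnt10b, Fzd5, Wif1 and Tcf7) and 315 of all 14624 genes. With the gene-length trend also removed, 3 members and 271 of the 14624 genes were called. The labels do not say that a number marks a shared animal or day. For that reason the numbers were not taken as pairs. Deviations of same-numbered libraries correlated at 0.0104, 0.256 and 0.138, and 4 of 6 libraries correlated best with their own number. With so few libraries these correlations do not decide whether the numbers mark pairs. Depth limits genes of few reads such as Lef1, Rnf43, Notum and Axin2.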

Other observations

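Frzb, a secreted Frizzled-related Wnt antagonist first known from cartilage, had too few reads to be tested, at 2, 0 and 3 in control and 14, 5 and 8 with Ni, so the 3 Ni libraries lay above the 3 controls. Sfrp5, from the wider list of pathway genes, had no read in any control library and 4, 4 and 1 with Ni, at or near the limit that a count of 0 allows. Both were named after their values were seen. Summed chondrocyte markers were 56, 76 and 88 CPM in control and 98, 126 and 93 CPM with Ni, with Col9a1 at 0 throughout. Col2a1 alone carried most of that sum, at 52.3, 72.1 and 83.2 CPM in control and 88.7, 119.1 and 86.2 CPM with Ni. Acan and Matn1 reached at most 0.217 and 0.497 CPM.

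The genes that load and release Wnt ligands had positive fold changes: Wls, the carrier of Wnt proteins to the surface, was 207.1 ± 26.1 CPM in control and 250.1 ± 27.9 CPM with Ni (SD, n = 3 each; log2 fold change 0.27, SE 0.13, edgeR BH-adjusted p = 0.38), and Porcn, which attaches their lipid, was 36.2 ± 10.5 against 45.5 ± 3.34 CPM (0.33, SE 0.18, BH-adjusted p = 0.452). Both overlapped between groups. Wnt1 and Wnt3a had no read in any library.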
